A study of Homo sapiens with 12 samples.

Results

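The comparison set 4 libraries of H9 cells transfected with sense oligonucleotides to LINE1 (SO-L1) against 4 libraries transfected with non-targeting antisense oligonucleotides (ASO-Ctr), 8 of the 12 libraries of the series. The libraries were chosen by their labels alone, and numbers 1 to 4, which both groups carry, were used as a block. H9 is an established human embryonic stem cell line. It was kept in RSeT, a medium for naive pluripotency. Every culture of both groups received 25 nM oligonucleotide with a lipid reagent, and 0.7 uM trans-ISRIB, 5 uM emricasan and 10 uM Y-27632, which were withdrawn at 24 h. Every culture also received 10 nM DZNep and 5 nM TSA until harvest at 48 h. By the labels the groups differed in the oligonucleotide only, and both carried the 2 chromatin drugs and the 3 stress inhibitors. The cells were not sorted, so untransfected cells may be part of every library. The third group of the series, 4 libraries with antisense oligonucleotides to LINE1 (ASO-L1), is given here only as levels beside the others, since its comparisons share these same SO-L1 and ASO-Ctr libraries.

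LINE1 (L1) is a family of retrotransposons that copies itself through an RNA, and its RNA is found in early embryos and pluripotent cells. Antisense oligonucleotides pair with an RNA and can direct its cleavage by RNase H, whereas a sense oligonucleotide has the sequence of the RNA itself and serves as a control of similar composition. Oligonucleotides of any sequence can also be bound by nuclear proteins or seen by innate sensors. DZNep lowers histone methylation, including that made by Polycomb repressive complex 2 (PRC2), and TSA inhibits histone deacetylases. Trans-ISRIB blunts the integrated stress response, emricasan inhibits caspases and Y-27632 inhibits ROCK. The comparison asks how far the 2 control oligonucleotide sets of the study differ from each other in expression. L1 RNA itself was not analysed here, since the deposited table counts genes and not L1 copies, and the oligonucleotide sequences are not printed because none of the sources used here holds them.

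Total counts lay between 20367989 and 29451385 per library in these 8 libraries, so 3 counts, used as a floor for counting error only, correspond to 0.102 to 0.147 CPM, the count scaled to library size that is used as the level throughout. All 8 of the embryonic stem cell markers checked were present, and their summed level was 6917 to 7529 CPM in ASO-Ctr and 6725 to 7273 CPM in SO-L1. Among 8 naive markers, KLF17 was below 1 CPM and the other 7 above it, with sums of 269 to 300.02 and 259 to 298 CPM. Among 6 primed markers, all were above 1 CPM, with sums of 355 to 481 and 314 to 444 CPM, so markers of both states were present. Markers of trophectoderm and amnion summed to 2.76 to 3.80 and 3.05 to 4.33 CPM, and those of the germ layers to 10.5 to 14.3 and 12.4 to 13.3 CPM. PDGFRA, a receptor also made outside this lineage, carried most of the primitive endoderm sum of 25.2 to 30.9 and 23.8 to 29.2 CPM. The libraries fell into numbers 1 and 2 against numbers 3 and 4 in both groups, and the labels do not say what a number stands for. They also do not say whether the libraries came from separate cultures, so the spread behind the p-values may be technical. With the block, that spread is what is left after the number is allowed for, pooled over genes, and not the full spread between libraries. In bulk RNA, fewer cells of a type and less RNA per cell cannot be told apart.

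SO-L1 and ASO-Ctr differed in few genes and by little. Counts sufficed to test 16705 genes in edgeR's two-sided quasi-likelihood test with the number as a block, taking a Benjamini-Hochberg adjusted p below 0.05 as a call. SO-L1 was above ASO-Ctr in 240 of them (1.44%) and below it in 309 (1.85%), together 3.29%. At an unadjusted p under 0.05 there were 2125 genes. A called change was typically small, with medians of 1.15-fold among the higher and 1.18-fold among the lower genes. Changes of at least 1.5-fold numbered 19 higher and 18 lower, and changes of at least 2-fold numbered 4 higher and 1 lower. For 11543 genes, 69.1% of those tested, the 95% interval of the change lay inside ±0.32 on the log2 scale, called narrow here, and the median SE was 0.06 on the log2 scale. The plot of change against level shows the called genes in colour.

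**Figure D1:**
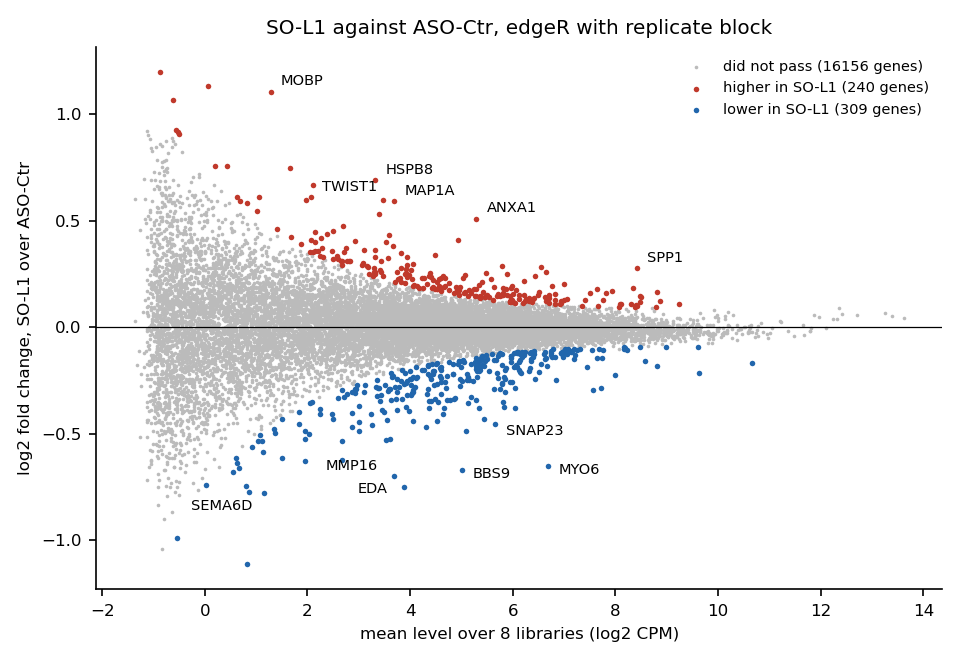
Log2 fold change of SO-L1 over ASO-Ctr against mean level in log2 CPM over the 8 libraries, 1 point per gene tested, with the 240 higher genes in red, the 309 lower genes in blue and the rest in grey. Most coloured points lie close to 0, and MYO6, BBS9 and EDA stand below the other genes of their level.

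The number of calls rests on the block. Without it, 0 genes were higher and 5 were lower (0.0299%) in edgeR (189 and 253 at an unadjusted p under 0.05). The block fit has 3 residual degrees of freedom per gene and took nearly 1 common spread for all genes, which makes its p-values very small. When all 12 libraries were fitted with the block, 73 genes were higher and 170 lower, 1.41% of 17228, of which 72 and 170 were also called with 8 libraries. This fit takes its spread from the ASO-L1 libraries as well, so a call can be lost there while the change stays the same. Other calls were lost although the SE also stayed nearly the same. For JARID2 the SE was 0.0282 with 8 and 0.0277 with 12 libraries, with adjusted p in edgeR of 0.0307 and 0.0957. DESeq2 with the block called 35 and 90, and limma-voom 229 and 304 (3.19% in all). The genes called by all 4 of these fits numbered 24 higher and 89 lower. Of the 549 calls with 8 libraries, 192 held when each number was left out in turn. Groups whose 4 libraries did not overlap were seen in 53 of the 240 higher and 122 of the 309 lower genes. Over all genes tested, called or not, the groups did not overlap in 1.01% with SO-L1 higher and 1.27% with SO-L1 lower.

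The 5 genes that were lower even without the block were MYO6, BBS9, EDA, SNAP23 and NEO1. MYO6 encodes myosin VI, a motor that moves toward the minus end of actin filaments in endocytosis. Its level was 125, 124, 127 and 129.8 CPM in ASO-Ctr 1 to 4 and 80.8, 77.6, 82.1 and 80.9 CPM in SO-L1 1 to 4. All SO-L1 libraries lay far below all ASO-Ctr libraries, and the numbers within a group hardly differed. The log2 change was -0.65 ± 0.03 (edgeR quasi-likelihood, adjusted p = 1.97e-80 with the block and 3.74e-04 without it). In ASO-L1 the level was 109 ± 5.95 CPM (mean ± SD, n = 4), between the other groups.

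BBS9 encodes a subunit of the BBSome, a complex that sorts membrane proteins to the primary cilium. It stood at 39.2, 40.1, 39.3 and 38.8 CPM in ASO-Ctr and 23.7, 22.1, 26.3 and 26.7 CPM in SO-L1. The ASO-Ctr values were nearly equal, and every SO-L1 value was well below them. The log2 change of BBS9 was -0.67 ± 0.05 (edgeR, adjusted p = 5.65e-42, and 0.0119 without the block), and its ASO-L1 level was 27.2 ± 2.300 CPM. EDA encodes ectodysplasin A, a ligand of the tumour necrosis factor family needed for hair, teeth and sweat glands. It fell from 19.9, 19.2, 17.4 and 16.9 CPM to 10.7, 11.1, 10.6 and 11.02 CPM, a log2 change of -0.75 ± 0.06 (edgeR, adjusted p = 2.87e-28, and 0.0119 without the block). The groups did not overlap, the SO-L1 libraries were almost identical, and ASO-L1 was at 12.1 ± 0.338 CPM.

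SNAP23 encodes a SNARE protein for fusion of vesicles with the plasma membrane. Its levels were 62.2, 61.2, 53.5 and 57.4 CPM in ASO-Ctr and 42.8, 41.4, 42.7 and 43.4 CPM in SO-L1. ASO-Ctr lay above SO-L1 in every library, with a log2 change of -0.46 ± 0.04 (edgeR, adjusted p = 3.09e-27, and 0.0427 without the block). ASO-L1 was at 54.2 ± 1.68 CPM, nearer to ASO-Ctr. NEO1 encodes neogenin, a receptor for netrins and repulsive guidance molecules. Its levels were 64.1, 63.8, 62.04 and 62.5 CPM in ASO-Ctr and 48.7, 48.1, 49.5 and 51.3 CPM in SO-L1. The groups were again apart, with a log2 change of -0.35 ± 0.04 (edgeR, adjusted p = 3.45e-17, and 0.0421 without the block). NEO1 stood at 45.7 ± 1.74 CPM in ASO-L1, below both.

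**Figure D2:**
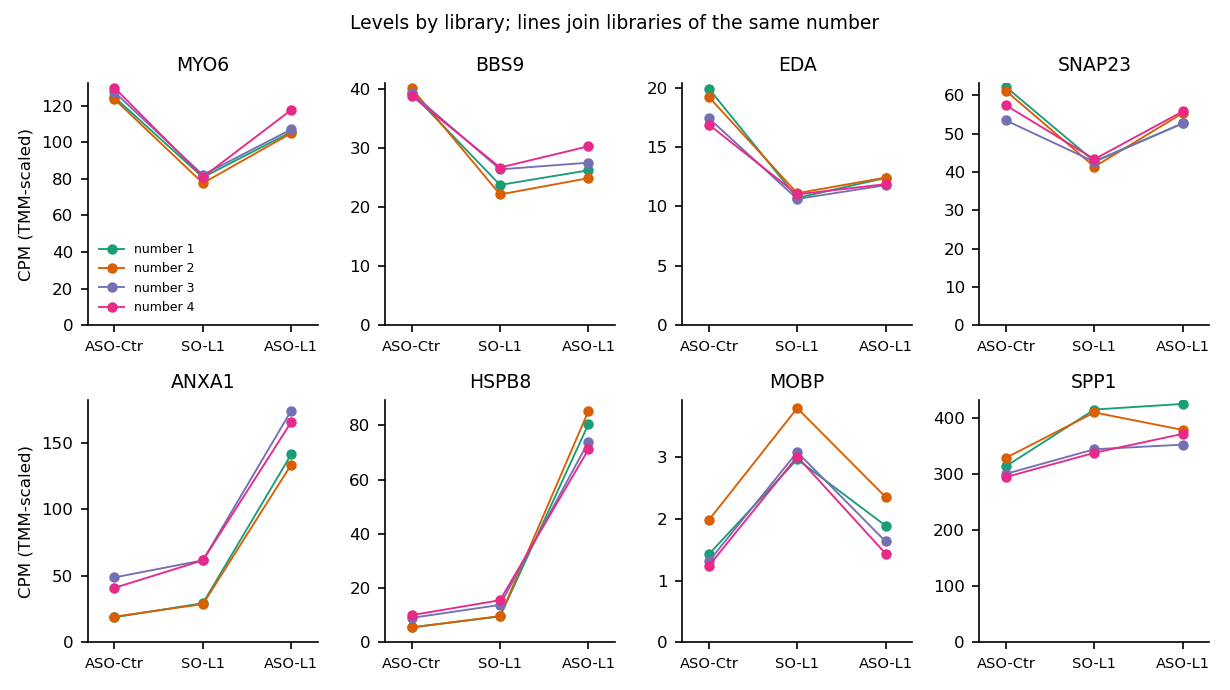
Levels in CPM of 8 genes in the 12 libraries, with lines joining libraries of the same number across ASO-Ctr, SO-L1 and ASO-L1. The 4 genes of the upper row are lower in every SO-L1 library than in any ASO-Ctr library. ANXA1 and HSPB8 differ more between ASO-L1 and the rest than between SO-L1 and ASO-Ctr. ANXA1 also differs more between numbers than between SO-L1 and ASO-Ctr.

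Another 7 genes complete the 12 lower ones of smallest p. They were called with 8 and with 12 libraries, and in 6 of them the groups did not overlap. GAB1, an adaptor of receptor tyrosine kinases, had 42.1, 43.5, 37.6 and 35.04 CPM in ASO-Ctr and 32.4, 27.6, 26.7 and 26.3 CPM in SO-L1. The log2 change of GAB1 was -0.49 ± 0.05. MMP16, a membrane-bound matrix metalloproteinase, had 13.3, 13.2, 19.5 and 16.9 and 7.96, 8.42, 10.4 and 12.1 CPM, and numbers 3 and 4 were higher than numbers 1 and 2 in both groups. The log2 change of MMP16 was -0.70 ± 0.07. TUSC3, a subunit of the oligosaccharyltransferase complex, fell by a log2 change of -0.38 ± 0.04, from 74.3 ± 4.14 to 57.04 ± 2.24 CPM. NBAS, a protein of transport from the Golgi to the endoplasmic reticulum, fell from 49.98 ± 7.15 to 37.1 ± 4.93 CPM (-0.43 ± 0.04) and stood at 31.7 ± 3.41 CPM in ASO-L1. UACA, a regulator of apoptosome assembly, changed by -0.37 ± 0.04, and ZNF638, a nuclear zinc finger protein that silences unintegrated retroviral DNA, by -0.30 ± 0.03. IGF2BP3, an RNA-binding protein of fetal and tumour cells, was the exception on overlap, with 274, 279, 189 and 194 CPM in ASO-Ctr and 221, 218, 158 and 167 CPM in SO-L1. Numbers 3 and 4 of IGF2BP3 were low in both groups, and SO-L1 was the lower in each of the 4 pairs (-0.29 ± 0.03). Among lower genes above a mean log2 CPM of 1, SEMA6D, a semaphorin, had the largest change (-0.78 ± 0.16, 2.68 ± 0.414 to 1.57 ± 0.149 CPM). In edgeR, the adjusted p-values of these 8 genes lay between 4.28e-23 (GAB1) and 5.90e-05 (SEMA6D).

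Among the 240 higher genes the groups did not overlap in 53, and among the 309 lower genes in 122. Of the 12 higher genes with the smallest p, 2 had groups that did not overlap, SPP1 and MOBP, and 6 were also called with 12 libraries. SPP1 encodes osteopontin, a secreted ligand of integrins. Its level was 314, 329, 300.4 and 295 CPM in ASO-Ctr and 415, 409.7, 344 and 338 CPM in SO-L1. Every SO-L1 library was above every ASO-Ctr library, and numbers 1 and 2 were further apart between the groups than numbers 3 and 4. The log2 change of SPP1 was 0.28 ± 0.03 (edgeR, adjusted p = 8.67e-19, and 5.91e-05 with 12 libraries), and ASO-L1 was at 382 ± 30.8 CPM. MOBP encodes a structural protein of myelin. It had 1.43, 1.98, 1.31 and 1.24 CPM in ASO-Ctr and 2.97, 3.79, 3.08 and 3.01 CPM in SO-L1. The groups did not overlap, and the change was the largest among higher genes above a mean log2 CPM of 1, at 1.11 ± 0.15 (edgeR, adjusted p = 7.77e-11, and 5.65e-06 with 12 libraries). ASO-L1 stood at 1.83 ± 0.396 CPM.

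ANXA1, HSPB8, ATG9B, LMNA, AHNAK2 and FLNC were called higher with 8 libraries and not with 12. Their log2 changes were nearly the same in both fits, and the SE was larger with 12. With 12 libraries the change was 0.51 ± 0.23 for ANXA1 and 0.71 ± 0.28 for HSPB8. ANXA1 encodes annexin A1, a calcium-dependent membrane-binding protein. Its levels were 18.9, 19.4, 48.8 and 40.99 CPM in ASO-Ctr and 29.5, 28.8, 61.7 and 61.7 CPM in SO-L1. SO-L1 was the higher in each pair, but ASO-Ctr 3 and 4 were above SO-L1 1 and 2, so the groups overlap. The log2 change of ANXA1 was 0.51 ± 0.04 (edgeR, adjusted p = 5.46e-27, and 0.573 with 12 libraries), while ASO-L1 was at 154 ± 19.3 CPM. HSPB8, a small heat shock protein of chaperone-assisted autophagy, had 5.56, 5.498, 9.03 and 10.04 CPM in ASO-Ctr and 9.59, 9.68, 13.8 and 15.6 CPM in SO-L1. The pattern was the same, SO-L1 above ASO-Ctr in each pair and numbers 3 and 4 high in both, with a log2 change of 0.69 ± 0.08 (edgeR, adjusted p = 5.93e-17, and 0.5 with 12 libraries). ASO-L1 was far above both at 77.7 ± 6.38 CPM. ATG9B, a scramblase of autophagosome formation, changed by 0.60 ± 0.07, and LMNA, the gene of lamins A and C, by 0.26 ± 0.03. AHNAK2, a large scaffold protein, changed by 0.53 ± 0.07, and FLNC, the muscle filamin, by 0.24 ± 0.03. The adjusted p-values of these last 4 with 12 libraries were 0.311, 0.626, 0.768 and 0.849. Their ASO-L1 means were 39.8, 288, 39.5 and 591 CPM, against 13.3, 108, 12.1 and 93.6 CPM in SO-L1.

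MAP1A, PPP2R3A, PTPRN and NFATC4 were called with 8 and with 12 libraries although their groups overlap. MAP1A, a microtubule-associated protein of neurons, had 7.14, 7.99, 12.9 and 12.9 CPM in ASO-Ctr and 12.01, 14.96, 16.8 and 17.7 CPM in SO-L1 (0.59 ± 0.07). PPP2R3A, a regulatory subunit of protein phosphatase 2A, had 27.7, 29.3, 23.6 and 24.01 and 39.4, 38.7, 32.3 and 28.9 CPM (0.41 ± 0.05). Here numbers 1 and 2 were the higher ones, the reverse of MAP1A, and SO-L1 was above ASO-Ctr in each pair for both genes. PTPRN, a phosphatase-like protein of secretory granules, changed by 0.28 ± 0.03, and NFATC4, a calcineurin-regulated transcription factor, by 0.28 ± 0.04. Larger changes at lower levels were those of TPPP3, a tubulin-polymerising protein (0.75 ± 0.13), TINCR (0.67 ± 0.11) and TWIST1, a transcription factor of mesenchymal cells (0.61 ± 0.11). The groups of TPPP3 overlap, and it was not called with 12 libraries (adjusted p in edgeR 0.744) or in DESeq2 (0.0739). TINCR and TWIST1 were called with 12 libraries. In DESeq2 TINCR was called (adjusted p 0.0372) and TWIST1 was not (0.0681). TWIST1 rose from 2.56, 2.698, 4.34 and 3.39 to 4.45, 4.93, 5.49 and 5.04 CPM, the groups were just apart, and ASO-L1 was at 12.4 ± 0.859 CPM. Below the level set for naming, and picked after their values were seen, TIGIT, an immune receptor, was the most raised of the called genes and HMCN1, a matrix protein, the most lowered. TIGIT had 0.246, 0.342, 0.279 and 0.248 CPM in ASO-Ctr and 0.642, 0.654, 0.677 and 0.636 CPM in SO-L1, and leaving out 1 number raised its adjusted p in edgeR to as much as 0.118, past the threshold. The groups of TIGIT were apart at this low level. HMCN1 had 1.08, 1.025, 4.02 and 3.02 and 0.445, 0.741, 1.29 and 1.78 CPM, lower in each pair (-1.11 ± 0.18), with overlapping groups.

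Lower genes were long. Protein-coding genes were matched by symbol to GENCODE release 29, an annotation of build GRCh38, for the distance from the start to the end of the gene (its span, introns included). A match was found for 85.9% of tested, 94.2% of higher and 93.2% of lower genes. The median span was 33.5 kb over the tested protein-coding genes, 24.3 kb over the higher and 159 kb over the lower ones. Genes of at least 100 kb made up 189 of 284 lower (66.5%), 32 of 219 higher (14.6%) and 2840 of 13505 tested genes (21.0%). Of the 12 lower genes with the smallest p, 11 had such a span, SNAP23 with 54.1 kb being the exception. BBS9 spans 477 kb, EDA 423 kb, NBAS 394 kb, TUSC3 349 kb and MYO6 170.3 kb. Of the 12 higher genes, 1 did, PPP2R3A with 182 kb. This pattern was looked for after the calls were seen.

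The share of lower genes rose with each step in span. It was 9 of 2534 genes under 10 kb (0.355%), 20 of 3772 from 10 to 30 kb (0.530%) and 66 of 4359 from 30 to 100 kb (1.51%). It reached 111 of 2212 genes from 100 to 300 kb (5.02%) and 78 of 628 genes of 300 kb or more (12.4%). Higher genes went the other way, from 2.33% of the shortest to 0.955% of the longest genes. The median log2 change over all genes of a bin, called or not, was 0.01 under 10 kb, -0.02 from 100 to 300 kb and -0.05 at 300 kb or more. In the longest genes it was -0.06, -0.04, -0.07 and -0.05 in pairs 1 to 4, below the shortest genes in each pair. The shift was thus small for the typical long gene and present in all 4 pairs, and a gene such as MYO6 went far beyond it.

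Long genes also differ in level and in exon length, with a median exon length of 5.10 kb over tested and 8.05 kb over lower genes. Among genes of 300 kb or more, the lower share was 5.42% below a log2 CPM of 3, 18.4% from 3 to 6 and 19.7% at 6 or above. By exon length it was 9.91% from 3 to 6 kb and 12.9% at 6 kb or more, while under 3 kb it was 1 of 5 genes. Within each of these strata of 20 or more genes, the lower share was higher at 300 kb or more than under 10 kb. With 12 libraries, 48 genes of this span were lower and 3 of those under 10 kb; DESeq2 gave 25 and 3, limma-voom 78 and 7. In single libraries, the median of long genes minus that of short genes, each relative to its mean over the 8 libraries, was 0.05, 0.05, 0.02 and 0.02 in ASO-Ctr 1 to 4. In SO-L1 1 to 4 it was -0.02, -0.01, -0.08 and -0.04. All SO-L1 values were below all ASO-Ctr values. This was not tested apart from the gene calls.

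**Figure D3:**
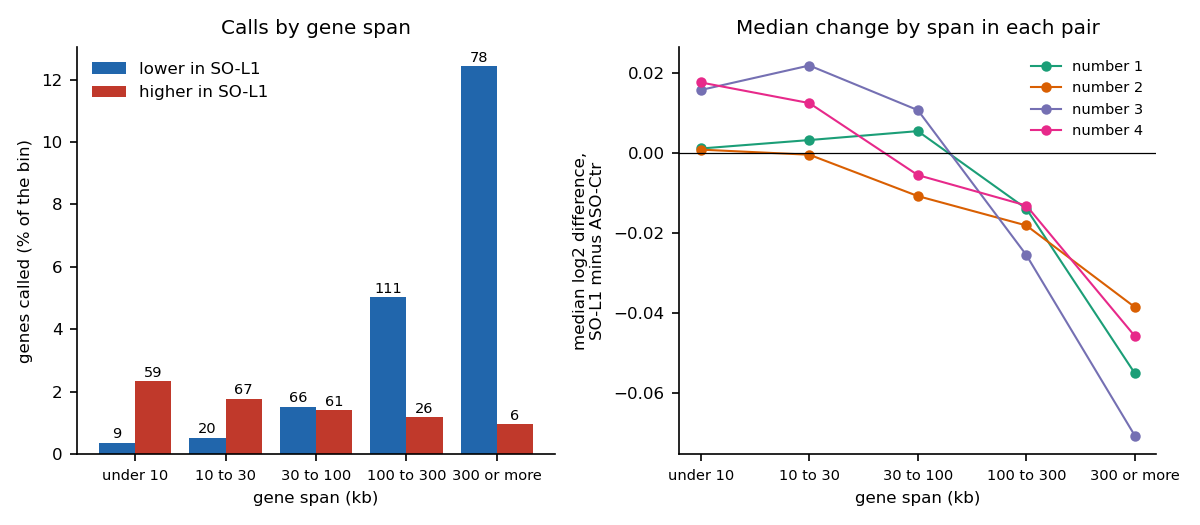
Left, percentage of protein-coding genes called lower (blue) or higher (red) in SO-L1 by gene span in kb, with the number of called genes above each bar. Right, median log2 difference of SO-L1 minus ASO-Ctr by span in each same-number pair, where all 4 lines fall to between -0.07 and -0.04 at 300 kb or more.

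Calls among genes that sense or answer foreign nucleic acid are given beside the 3.29% of all genes. Of 20 tested sensors and adaptors such as DDX58 (RIG-I), 0 were called in edgeR, with 1 higher and 1 lower at an unadjusted p under 0.05, and 0 in limma-voom or DESeq2. The 95% interval lay inside ±0.32 on the log2 scale in 12 of the 20, and the fitted log2 changes ran from -0.20 to 0.41. Of 40 interferon response genes, 1 was called higher, 2.5% and so near the share of all genes (5 higher and 1 lower at an unadjusted p under 0.05). It was MX1, an interferon-induced antiviral GTPase, at 10.8, 11.3, 20.2 and 16.98 CPM in ASO-Ctr and 14.5, 14.8, 23.1 and 20.4 CPM in SO-L1. MX1 was higher in each pair and the groups overlap (0.30 ± 0.06). Its adjusted p in edgeR was 7.40e-05, and 0.00438 with 12 libraries, but DESeq2 did not call it (0.0851). The median log2 change of the interferon list was 0.02, against 0.00 over all genes tested, and 25 of the 40 intervals lay inside ±0.32. ISG15, a ubiquitin-like interferon product outside the naming rule, was at 14.4 ± 1.700 and 15.2 ± 1.32 CPM and was not called. In the NF-kB list 2 of 12 genes were called, 16.7% against 3.29% of all genes, NFKB2, a subunit precursor (0.19 ± 0.04), and TRAF1, an adaptor of tumour necrosis factor receptors (0.33 ± 0.10), both higher; NFKB2 alone held its call with 12 libraries.

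Among 21 proteins and RNAs that bind or cut oligonucleotides, 1 was called, 4.76% against 3.29% of all genes. MALAT1, a nuclear long non-coding RNA, had 269.9, 215, 176 and 169 CPM in ASO-Ctr and 315, 261, 173 and 169.9 CPM in SO-L1. It was higher in pairs 1 and 2 and nearly equal in pairs 3 and 4, and the call (0.12 ± 0.03, edgeR adjusted p = 0.00234) was absent with 12 libraries (0.823). RNASEH1, the nuclease that cuts RNA paired with DNA, was at 39.1 ± 1.97 and 40.5 ± 3.93 CPM, with an interval of -0.03 to 0.13 on the log2 scale. NEAT1, the RNA scaffold of paraspeckles, was at 225 ± 16.7 and 219 ± 26.9 CPM. Both were added after their values were seen. In the endocytosis and lysosome list of 25, 8% were called. SQSTM1, the autophagy receptor p62, rose (0.21 ± 0.04) and EEA1, an early endosome tether with a span of 159 kb, fell (-0.19 ± 0.04). Of 20 heat shock genes, HSPA1A was called higher (0.17 ± 0.05), 5% of the list. HSPA1B, a copy of HSPA1A, is nearly identical to it, so the split of reads between them is uncertain. MALAT1 and HSPA1A each lost the call when a single number was left out, and SQSTM1 and EEA1 kept it.

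In the list of ATF4 targets and unfolded protein response genes, 42 were tested, of which 9 were higher and 1 lower, with a median log2 change of 0.05. That is 23.8% called, against 3.29% of all genes; further lists with small numbers of genes, given with their shares where they are described, also lay above 3.29%. At an unadjusted p under 0.05, 14 of the 42 were higher and 3 lower. The list was chosen with earlier results of these data known. PPP1R15A encodes GADD34, which directs dephosphorylation of eIF2 alpha. It was at 40.2, 41.9, 40.5 and 40.1 CPM in ASO-Ctr and 47.9, 49.4, 49.5 and 47.1 CPM in SO-L1. The groups were apart and tight, with a log2 change of 0.25 ± 0.04 (edgeR, adjusted p = 1.75e-07, and 0.0013 with 12 libraries), and ASO-L1 was at 108 ± 8.95 CPM. WARS, the cytoplasmic tryptophan transfer RNA synthetase, changed by 0.18 ± 0.03, and CEBPB, a leucine zipper transcription factor, by 0.25 ± 0.05. DDIT4, an inhibitor of mTORC1 signalling, had 161, 179.6, 34.8 and 41.2 CPM in ASO-Ctr and 179, 188, 44.6 and 50.9 CPM in SO-L1. Numbers 1 and 2 of DDIT4 were several times above numbers 3 and 4 in both groups, far more than the groups differed (0.19 ± 0.03), and the call was absent with 12 libraries (0.733). The amino acid genes ASNS, SLC7A11, SLC3A2 and MTHFD2 and the glutathione-degrading CHAC1 changed by 0.09 (MTHFD2) to 0.17 (CHAC1).

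The 1 member of the ATF4 list called lower was DNAJC3, which encodes P58IPK, an inhibitor of eIF2 alpha kinases. It fell from 67.5, 73.5, 74.3 and 73.9 to 56.9, 58.9, 58.2 and 63.4 CPM without overlap (-0.29 ± 0.04; edgeR, adjusted p = 2.60e-12). DNAJC3 spans 118 kb. ATF4 itself was at 259.9 ± 7.02 and 263 ± 5.33 CPM and DDIT3 (CHOP), a proapoptotic target, at 10.1 ± 2.28 and 11.4 ± 1.52 CPM; neither was called, and neither was taken by the naming rule. With 12 libraries 4 genes of the list were higher and 1 lower, and 4 of the 10 calls with 8 libraries held when each number was left out in turn. DESeq2 called 3 higher and 1 lower.

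Immediate early genes, which answer growth and stress signals within minutes to hours, had 4 higher and 1 lower of 34, with a median log2 change of 0.01. That is 14.7% called, against 3.29% of all genes; with 12 libraries 2 were higher, ATF3 and RHOB, and 0 lower, and DESeq2 called 1 higher. ATF3, a stress-induced transcription factor, had 21.96, 22.4, 24.2 and 22.3 CPM in ASO-Ctr and 24.3, 25.7, 29.02 and 28.2 CPM in SO-L1. The groups were just apart (0.24 ± 0.05), and ASO-L1 was at 64.1 ± 5.35 CPM. The adjusted p of ATF3 in edgeR was 3.06e-04, and 0.00817 with 12 libraries, but DESeq2 did not call it (0.154). RHOB, a small GTPase, changed by 0.16 ± 0.03, JUN, a subunit of AP-1, by 0.15 ± 0.04, and KLF6 by 0.12 ± 0.03. JUN lost its call without number 3 (adjusted p in edgeR 0.324) or number 4, and with 12 libraries (0.0697). SPRY4, a feedback inhibitor of growth factor signalling, fell in 3 of 4 pairs (-0.26 ± 0.05) and was not called with 12 libraries (adjusted p in edgeR 0.649). Of 33 p53 targets, GDF15, a stress cytokine (0.24 ± 0.05), and POLH, a translesion polymerase (0.20 ± 0.06), were higher and ZMAT3, an RNA-binding protein, lower (-0.16 ± 0.05). That is 9.09% called, against 3.29% of all genes. Leaving out 1 number ended the calls of GDF15, POLH and ZMAT3. Glycolysis and hypoxia genes had 4 higher of 37, 10.8% against 1.44% of all genes, namely ENO2, SLC16A3, VEGFA and BHLHE40, and 0 with 12 libraries in edgeR or in DESeq2 (12 higher and 1 lower at an unadjusted p under 0.05 with 8 libraries).

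**Figure D4:**
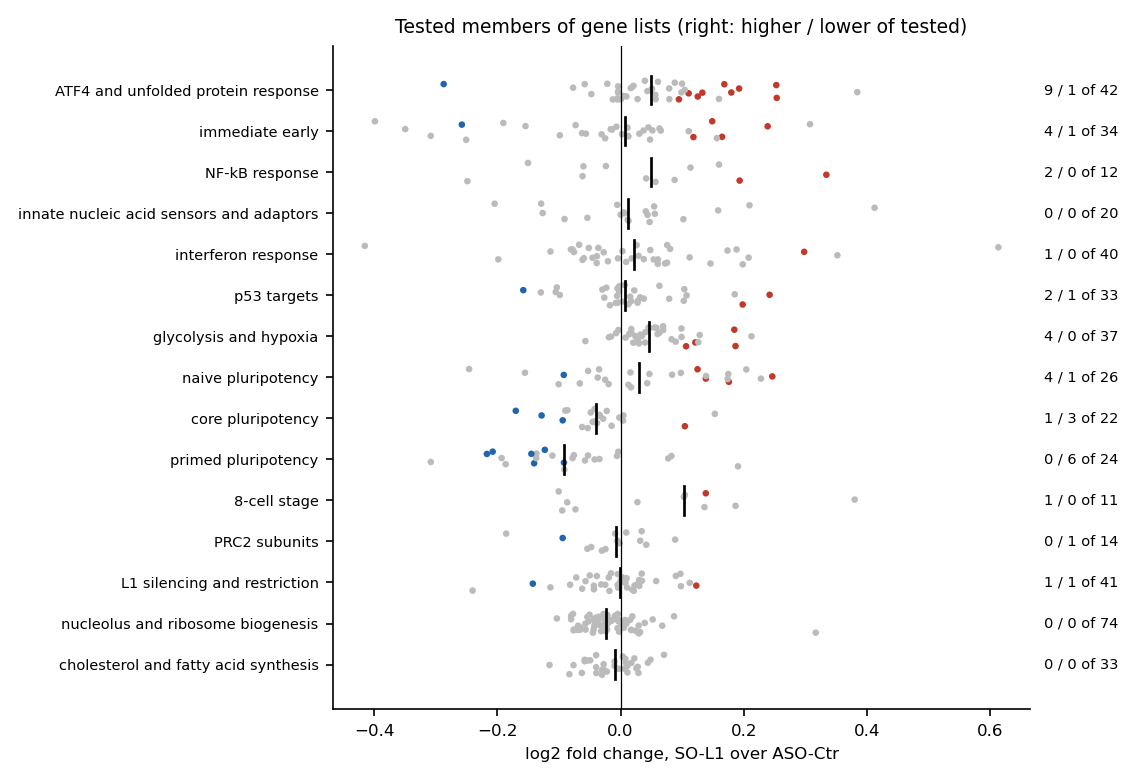
Log2 fold change of SO-L1 over ASO-Ctr for the tested members of 15 gene lists, 1 point per gene, red where called higher, blue where called lower and grey otherwise, with a black bar at each list's median. The counts at the right give higher and lower calls of the tested members; the medians lie between -0.09 (primed pluripotency) and 0.10 (8-cell stage).

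In the block fit, the pluripotency factors had narrow intervals around no change. POU5F1, which encodes OCT4, was at 1089 ± 49.2 CPM in ASO-Ctr and 1055 ± 20.7 CPM in SO-L1, with a 95% interval of -0.10 to 0.01 on the log2 scale. NANOG was at 124 ± 7.196 and 121 ± 8.38 CPM (-0.10 to 0.03), and SOX2 at 419 ± 12.3 and 409 ± 11.6 CPM (-0.09 to 0.02). Of these 3, 0 passed edgeR's test (adjusted p = 0.529, 0.754 and 0.703). In the core pluripotency list of 22, 18.2% were called, against 3.29% of all genes. EPCAM, an adhesion molecule, was higher (0.10 ± 0.03), and GDF3, a ligand of the TGF-beta family (-0.13 ± 0.04), ESRG and JARID2 were lower. ESRG is a long non-coding RNA driven by an endogenous retrovirus. It had 1909.9, 1837, 1554 and 1603 CPM in ASO-Ctr and 1614, 1596, 1438 and 1473 CPM in SO-L1. It was lower in each pair and numbers 1 and 2 fell most (-0.17 ± 0.03; edgeR, adjusted p = 1.52e-07). ERVMER34-1 (-0.24 ± 0.06) and LINC-ROR (-0.19 ± 0.05), further transcripts of retroviral origin, were lower, so 3 of 11 tested endogenous retroviral genes were lower, 27.3% against 1.85% of all genes, and 0 higher; with 12 libraries ESRG alone was called, and ESRG alone kept its call with each number left out.

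Genes of the primed state, the later of the pluripotent states, were lower in 6 of 24, 25.0% against 1.85% of all genes, and higher in 0, with a median log2 change of -0.09. The primed list had 12 lower and 1 higher at an unadjusted p under 0.05, and DESeq2 called 3 lower. THY1, a surface glycoprotein, had 57.99, 57.4, 98.9 and 92.5 CPM in ASO-Ctr and 46.4, 47.3, 83.8 and 88.2 CPM in SO-L1. It was lower in each pair, while numbers 3 and 4 were the higher in both groups and the groups overlap (-0.22 ± 0.04). NLGN4X, a neuronal adhesion protein with a span of 388 kb, changed by -0.21 ± 0.03 and PTPRZ1, a receptor phosphatase with a span of 189 kb, by -0.14 ± 0.03. These 3 held with 12 libraries (adjusted p in edgeR 0.00257, 5.04e-04 and 0.00332). SFRP2, a secreted Wnt inhibitor (-0.14 ± 0.03), SOX11, a neural transcription factor (-0.12 ± 0.04), and VCAN, a matrix proteoglycan (-0.09 ± 0.03), did not. Likewise 3 of the 6 calls held with each number left out. THY1 and SFRP2 span 7.61 and 8.53 kb, and the part of span in the calls of this list was not tested. THY1 is also a fibroblast marker; the fibroblast and feeder marker sum was 197 to 284 CPM in ASO-Ctr and 195 to 279 CPM in SO-L1, with LUM and DCN near 0, and its part in the THY1 value was not tested.

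Naive genes had 4 higher and 1 lower of 26, 19.2% against 3.29% of all genes, with a median log2 change of 0.03, and 0 in either direction with 12 libraries in edgeR or in DESeq2 (7 higher and 3 lower at an unadjusted p under 0.05 with 8 libraries). Each of the 5 naive calls was lost when some number was left out. HORMAD1, a meiotic chromosome protein (0.25 ± 0.06), FGF4, a growth factor (0.18 ± 0.05), UPP1, a uridine phosphorylase (0.13 ± 0.03), and ALPPL2 (0.14 ± 0.04) were higher, and PRDM14, a repressor of primed genes, lower (-0.09 ± 0.03). ALPPL2 is a placental-type alkaline phosphatase with near-identical relatives, so its reads are uncertain. It was at 37.3, 41.5, 119.8 and 102 CPM in ASO-Ctr and 44.6, 42.4, 125 and 119 CPM in SO-L1, far higher in numbers 3 and 4 than in 1 and 2 of both groups. DPPA3, a maternal factor that protects DNA methylation, was at 46.00 ± 16.4 and 42.98 ± 15.4 CPM (-0.10 ± 0.04; edgeR, adjusted p = 0.222).

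Genes of the 8-cell stage, when the human embryonic genome is activated, are the stated interest of the series. Of 47 in the table, 11 had enough counts to test, and ALPPL2 was the 1 called, 9.09% against 3.29% of all genes. TPRX1, a homeobox gene of that stage, had 0.591, 1.26, 2.19 and 1.28 CPM in ASO-Ctr and 0.988, 1.09, 1.96 and 1.91 CPM in SO-L1. The groups lay over each other and TPRX1 was not called (edgeR, adjusted p = 0.852). The interval was -0.23 to 0.50 on the log2 scale, so changes within that range were not resolved. ASO-L1 was at 5.52 ± 3.57 CPM. ZSCAN4, a zinc finger gene of telomere upkeep, had 30 counts in all ASO-Ctr libraries, 22 in all SO-L1 libraries and 129 in all ASO-L1 libraries. KLF17, a naive and 8-cell transcription factor, had 38, 39 and 74. LEUTX had 0 counts in both groups, and DUXA 1 in each. The 36 genes too low to test, 23 of them at 0 in all 8 libraries, summed to 1.06 ± 0.303 CPM in ASO-Ctr and 1.21 ± 0.449 CPM in SO-L1 (SD, n = 4). This difference was smaller than the spread between libraries (exact permutation p = 0.571, two-sided, where the 70 splits can give no less than 0.0286; adjusted to 0.971 over 2 sums).

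Lists of chromatin regulators held small numbers of calls, to be read beside the 3.29% of all genes. The PRC2 subunits EZH2, its methyltransferase (-0.11 to 0.02), SUZ12 (-0.04 to 0.10) and EED (-0.09 to 0.10) had intervals of the log2 change inside ±0.32. The 4 pairs of EED ran from -0.18 to 0.10 and those of SUZ12 from -0.05 to 0.18, in both genes wider than the interval. Of 14 PRC2 genes 1 was called (7.14%), JARID2, a DNA-binding cofactor with a span of 276 kb, which was lower. It had 524, 548, 516 and 515 CPM in ASO-Ctr and 488, 500.1, 491 and 492 CPM in SO-L1, groups that were apart (-0.09 ± 0.03; edgeR, adjusted p = 0.0307), but it missed the threshold with 12 libraries (0.0957) and without any 1 number (up to 0.287, without number 2). Of 13 developmental regulators repressed by PRC2, TWIST1 was the 1 called (7.69%), and DESeq2 did not call it. Of 41 genes of L1 silencing and restriction, 4.88% were called. PPHLN1, a subunit of the HUSH complex that silences retroelements, was higher (0.12 ± 0.04). HELLS, a chromatin remodeller for DNA methylation with a span of 112 kb, was lower (-0.14 ± 0.03). HELLS held with 12 libraries (adjusted p in edgeR 0.022), and neither gene held with each number left out. TRIM28, a corepressor of KRAB zinc finger proteins at retroelements, was at 1189.6 ± 37.1 and 1193 ± 16.1 CPM, with an interval of -0.05 to 0.06. Of 491 ZNF zinc finger genes 1 was higher, ZNF467 (0.61 ± 0.16), and 6 were lower, including ZNF638, ZNF423 (-0.28 ± 0.05) and ZNF813 (-0.18 ± 0.04). ZNF638, ZNF423 and ZNF813 span 159, 370 and 28.5 kb. ZNF467, at 1.59 ± 0.386 CPM in ASO-Ctr and 2.41 ± 0.442 CPM in SO-L1, lost its call without number 2 or number 3 (adjusted p in edgeR 0.107 and 0.0787). The calls made up 1.43% of the list, below the 3.29% of all genes, and reads of zinc finger genes with close relatives are uncertain.

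**Figure D5:**
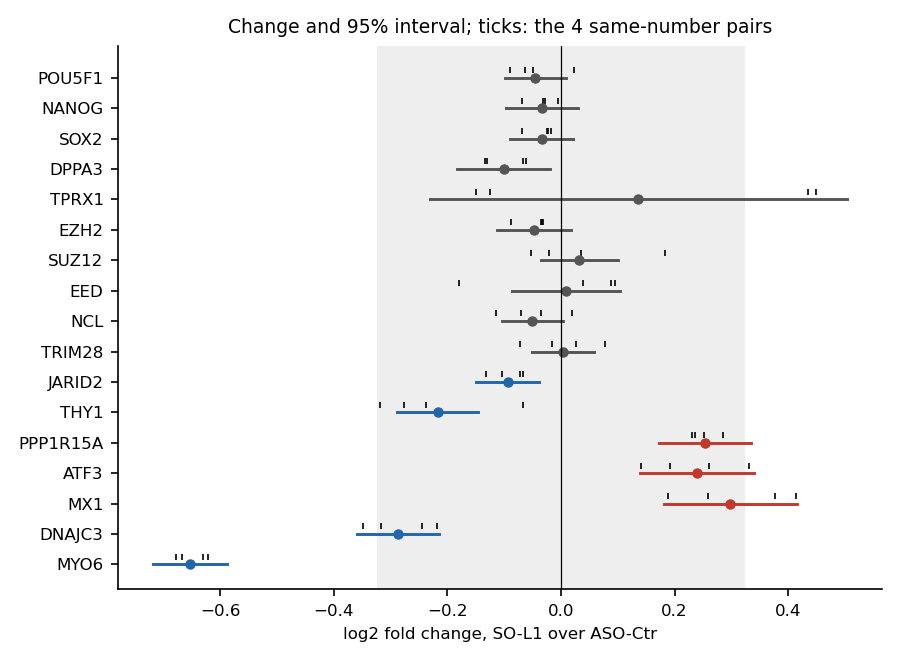
Log2 fold change of SO-L1 over ASO-Ctr with its 95% interval for 17 genes, with ticks for the 4 same-number pairs and shading for changes inside ±0.32. The intervals of the pluripotency factors POU5F1, NANOG and SOX2, the PRC2 genes EZH2, SUZ12 and EED, and TRIM28 and NCL lie inside the shading, that of TPRX1 leaves it on the higher side, and that of MYO6 lies wholly outside.

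Several large groups had no called gene in edgeR with 8 libraries. Of 74 nucleolar and ribosome biogenesis genes 0 were called (1 higher and 7 lower at an unadjusted p under 0.05), and also 0 with 12 libraries, limma-voom or DESeq2. In 73 of them the interval lay inside ±0.32. NCL, which encodes nucleolin, was at 2051 ± 98.3 and 1983 ± 139 CPM (-0.10 to 0.00). Of 33 cholesterol and fatty acid synthesis genes 0 were called (1 higher and 7 lower unadjusted, 1 lower in limma-voom and 0 in DESeq2), and all 33 intervals lay inside ±0.32. Of 86 ribosomal protein genes 0 were called in edgeR, limma-voom or DESeq2, with 0 higher and 3 lower unadjusted. The list of actin, SRF and YAP targets, which respond to cytoskeletal tension, had 0 of 26 called in the 3 tools and 3 higher and 3 lower unadjusted. The cell cycle list had 1 called of 41, 2.44% and so below the 3.29% of all genes. It was MKI67, a marker of dividing cells, which was lower (-0.12 ± 0.03). MKI67 was not called with 12 libraries, with some number left out or in DESeq2. Of the lineage lists, trophectoderm (10 tested) and primitive endoderm (9 tested) had 0 called in the 3 tools, with 1 and 5 at an unadjusted p under 0.05. The germ layer list had 1 higher of 9 (11.1%), NES, which encodes nestin (0.16 ± 0.03). NES was at 411, 444, 423 and 407 CPM in ASO-Ctr and 481, 493, 464 and 450.2 CPM in SO-L1 without overlap. Of 16 fibroblast genes VIM, which encodes vimentin (0.11 ± 0.03), and TWIST1 were higher, and THY1 and POSTN, a matrix protein (-0.51 ± 0.16), lower, 25.0% called against 3.29% of all genes. VIM and POSTN were not called with 12 libraries (adjusted p in edgeR 0.525 and 0.102) or with any 1 number left out, and TWIST1 and THY1 kept their calls in both. In DESeq2 THY1 was called (adjusted p 0.00507) and TWIST1 was not (0.0681). In the Nodal and TGF-beta list GDF3 and the inhibitor SMAD7 (-0.13 ± 0.04) were lower of 20, 10% called against 3.29% of all genes. With 12 libraries in edgeR or in DESeq2, 0 of the list were called (2 higher and 2 lower at an unadjusted p under 0.05 with 8 libraries). Wnt targets (13 tested), metallothioneins (10), replication-dependent histones (22), small nucleolar RNA host genes (16) and mitochondrially encoded genes (17) had 0 called in the 3 tools, with 4, 2, 3, 1 and 1 at an unadjusted p under 0.05. Their intervals lay inside ±0.32 in 8, 9, 4, 15 and 0 genes, and in 3 trophectoderm and 8 primitive endoderm genes. Lists this short hold few calls even at the 3.29% of all genes, so 0 calls here is near that share. Mitochondrially encoded RNAs took 7.14% ± 1.60 of counts in ASO-Ctr and 7.28% ± 0.644 in SO-L1 (SD, n = 4, exact permutation p = 0.971, two-sided). The ASO-Ctr spread came mostly from ASO-Ctr 2 at 4.74%, with ASO-Ctr 1, 3 and 4 at 8.08%, 7.81% and 7.93%.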

How the data were processed

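RNA was sequenced from H9 cells as stranded poly(A) libraries, per the labels. Per the submitters' processing notes, reads were handled with Trim Galore 0.4.0 and TopHat2 2.0.13 on build hg19 and counted by featureCounts of Subread 1.5.0. The deposited counts are raw whole numbers per gene symbol for 53712 named genes, in a table tagged as rid of duplicates, with no word on whether these were reads or rows. One row without a name, with 10 counts, was left out. The header of that table sits 1 cell to the left, so columns were assigned by position and checked against the deposited log2 values, which the authors normalised and batch-corrected by a method not given in the sources used here. Whether counting used the strand is not given either.

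The filter was filterByExpr of edgeR 4.0.16 (R 4.3.3), by group, with a minimum count of 10 and a minimum total of 15. TMM factors and a robust quasi-likelihood F test, two-sided, were applied to the 8 libraries with group and number. Calls have a Benjamini-Hochberg adjusted p under 0.05 over all genes tested. SE is the log2 change over the square root of F. CPM uses TMM library sizes. The script was tested on simulated data, where it called somewhat more unchanged genes than the threshold allows. The numbers are shared in the labels, which do not say what they stand for. With group means removed, same-number libraries correlated across genes at r from 0.618 to 0.658, all above 0.1, and were taken as pairs. Numbers 1 with 2 and 3 with 4 correlated as well (0.553 to 0.642), and the 2 sets against each other at -0.645 to -0.597. SO-L1 4 correlated more with ASO-Ctr 3 (0.642) than with ASO-Ctr 4 (0.619). The correlations thus separate the 2 sets and hardly the pairs within a set. Genes are not independent replicates.

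Alternatives were no block, 12 libraries, DESeq2 1.42.0 and its size factors, total counts, limma-voom and the deposited log2 values in limma 3.58.1, no filter, each number left out, each number set alone, and a test against 1.2-fold. Sums were compared by exact permutation. Named genes are the 12 per direction with the smallest p and the 6 with the largest change that moved 1 way in all 4 pairs above a mean log2 CPM of 1, up to 4 called members of each of 34 lists (or the 2 most expressed), and 14 fixed genes. The members and lists were chosen with earlier results of these data known.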

Additional observations from a re-analysis of the deposited data

Results flagged for a closer look

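MOBP had 3.79 CPM in SO-L1 2, apart from 2.97 to 3.08 CPM in the other SO-L1 libraries, and it was the 1 outlying library among 62 groups of 4 checked by Dixon's test, which by chance picks about 1 in 20. ASO-Ctr 2 was also the highest of its group, and the MOBP change kept its call without number 2.

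The SO-L1 change differed between numbers 1 and 2 and numbers 3 and 4 in 19 genes (0.114% of 16705) by an interaction test in edgeR. They included the mitochondrial MT-ND4L (0.31 in numbers 1 and 2 against -0.15 in numbers 3 and 4, log2) and MT-ATP8 (0.45 against -0.53), the ribosomal protein gene RPL39 (0.14 against -0.31) and the nuclear RNAs MALAT1 (0.25 against -0.01) and NEAT1 (0.08 against -0.17). ASO-Ctr 2 had a low mitochondrial share (4.74%), and some of these genes differed mostly in pair 2. MT-ND3 had 0.01 and 0.38 in pairs 1 and 2 and MT-RNR1 0.00 and 0.36, while MT-ATP8 had 0.60 and 0.30. In all 17 tested mitochondrial genes the interval of the change reached past ±0.32 on the log2 scale. Of the genes called over all 8 libraries, 2 had opposite signs in the 2 sets.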

How the results depend on the processing

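The block decided the count of calls. The 240 higher and 309 lower genes became 0 and 5 without the replicate block, 73 and 170 in 12 libraries with it, and 0 and 5 in 12 libraries without it. DESeq2 gave 35 and 90, and a test against 1.2-fold 9 and 12. Numbers 1 and 2 alone gave 95 and 128, and numbers 3 and 4 alone 123 higher. The deposited log2 values gave 159 higher. Leaving out a number gave 115 to 237 higher (115 without number 2, 152 without 3, 129 without 4) and 188 to 311 lower (188 without number 3). Members of any list, 35 higher and 26 lower, became 0 and 0 without the block in 8 or 12 libraries, 13 and 11 in 12 libraries with it, 7 and 8 in DESeq2, and 0 and 0 against 1.2-fold. They became 18 and 12 in numbers 1 and 2, 22 higher in numbers 3 and 4, 23 higher with the deposited values, and 20 to 29 and 14 to 35 with a number left out. Lower genes of 300 kb or more, 78, became 2 without the block in 8 or 12 libraries, 48 in 12 libraries with it, 25 in DESeq2, 39 and 51 in the number sets, 7 against 1.2-fold and 50 to 75 with a number left out (51 without number 2, 50 without 3). Lower genes under 10 kb, 9, became 0, 3, 0, 3 and 0 without the block, in 12 libraries with and without it, in DESeq2 and against 1.2-fold, 15 in numbers 3 and 4, and 4 to 17 with a number left out (17 without number 1, 5 without 2, 4 without 4). The 19 interaction genes became 12 without a filter and 11 in limma-voom. MALAT1 reversed to -0.0129 in numbers 3 and 4. The cause of these shifts was not tested. With other scalings or limma-voom, the counts over all genes, over list members and by span above stayed within 1.5 times, apart from the interaction genes in limma-voom, and single lists moved by at most 2 genes in a direction. No other named gene reversed under any alternative run. With 3 counts worth 0.102 to 0.147 CPM, changes in the 8-cell genes that stayed below the count filter were not resolved.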
